A study of Mus musculus with 23 samples.

Results

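Branched-chain amino acid breakdown was followed through 10 genes in mouse quadriceps, Bcat2, Bckdha, Bckdhb, Dbt, Bckdk, Ppm1k, Ivd, Mccc1, Hibch and Hibadh. They were taken by name as enzymes and regulators of the route, with earlier results of these data known, from a table of 55573 gene IDs, and all 10 were among the 13049 genes with enough counts to be tested. The 23 mice were C57Bl6 animals by their labels (C57BL/6J in the study's methods) of 8 to 10 weeks, and each carried a slow-release pellet under the skin for 14 days and was fasted for 5 hours before quadriceps was taken. Pellets held 50 mg corticosterone, the main glucocorticoid of the mouse, with 50 mg cholesterol, or 100 mg cholesterol alone as vehicle. There were 6 vehicle-treated males, 6 corticosterone-treated males, 6 vehicle-treated females and 5 corticosterone-treated females. The libraries were made from messenger RNA of whole muscle and counted by strand. The comparisons asked how corticosterone changed these transcripts in each sex, whether the change differed between the sexes, and whether the sexes differed under the same treatment.

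Leucine, isoleucine and valine are the branched-chain amino acids, and skeletal muscle is a main site where their nitrogen is removed. Bcat2, the mitochondrial aminotransferase, makes branched-chain keto acids, and the branched-chain keto acid dehydrogenase complex, with subunits from Bckdha, Bckdhb and Dbt, then decarboxylates them in the committed step. The kinase Bckdk phosphorylates this complex and switches it off, and the phosphatase Ppm1k switches it on. After that step the routes part, with Ivd and Mccc1 acting on the leucine branch and Hibch and Hibadh on the valine branch. Glucocorticoids are known to raise protein breakdown in muscle, which releases these amino acids.

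Corticosterone lowered Mccc1, Bckdk and Bcat2 in males, and no gene of the 10 passed the test in females. The Mccc1 call in males was kept whichever of the 12 males was left out, while those of Bckdk and Bcat2 were each lost in 9 of 12 such fits. In males Mccc1 fell by 0.52 ± 0.12 (SE) on the log2 scale, Bckdk by 0.41 ± 0.11 and Bcat2 by 0.37 ± 0.11 (6 against 6 mice). Bckdk stood at a log2 fold change of -0.42 ± 0.12 in females (5 against 6 mice), which missed the threshold. Among corticosterone-treated mice Mccc1, Dbt, Hibch and Bcat2 were lower in males than in females. Calls were made with the quasi-likelihood test of edgeR at a threshold of 0.01, after Benjamini-Hochberg adjustment of p over all tested genes. The p-values set each difference between groups against the spread between mice within groups, with all 4 groups in 1 model.

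In males the 3 calls among the 10 genes were all lower, beside 26.3% of all tested genes called in either direction and 13.1% called lower. Leaving out 1 male brought the count to 2, or to 1 without M3, M7, M11, M6, M8 or M12, beside 22.1% to 24.7% of all genes called. The count was 1 (Mccc1) with no count filter, beside 8.89%. It was 1 (Bckdk) with males fitted alone, beside 27.8%, where Mccc1 missed the threshold (adjusted p = 0.0103, edgeR). The log2 fold change was below 0 for 9 of the 10, with a median of -0.28 against -0.02 over all tested genes. In females 5 were above 0 and 5 below, with a median of 0.00 against 0.04, and the 0 calls stood beside 13.4% of all genes called and 6% called lower. At an unadjusted p under 0.05 the females had 1 gene of the 10, Bckdk, which DESeq2 also called. Every treated male lay below every vehicle-treated male for 3 genes, Bckdk, Mccc1 and Hibch, beside 11.1% of all genes, and for 0 the groups were separate in the other direction, beside 10.8%. In females the groups were separate for none of the 10, beside 4.34% of all genes with every treated mouse below and 3.38% with every treated mouse above.

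**Figure D1:**
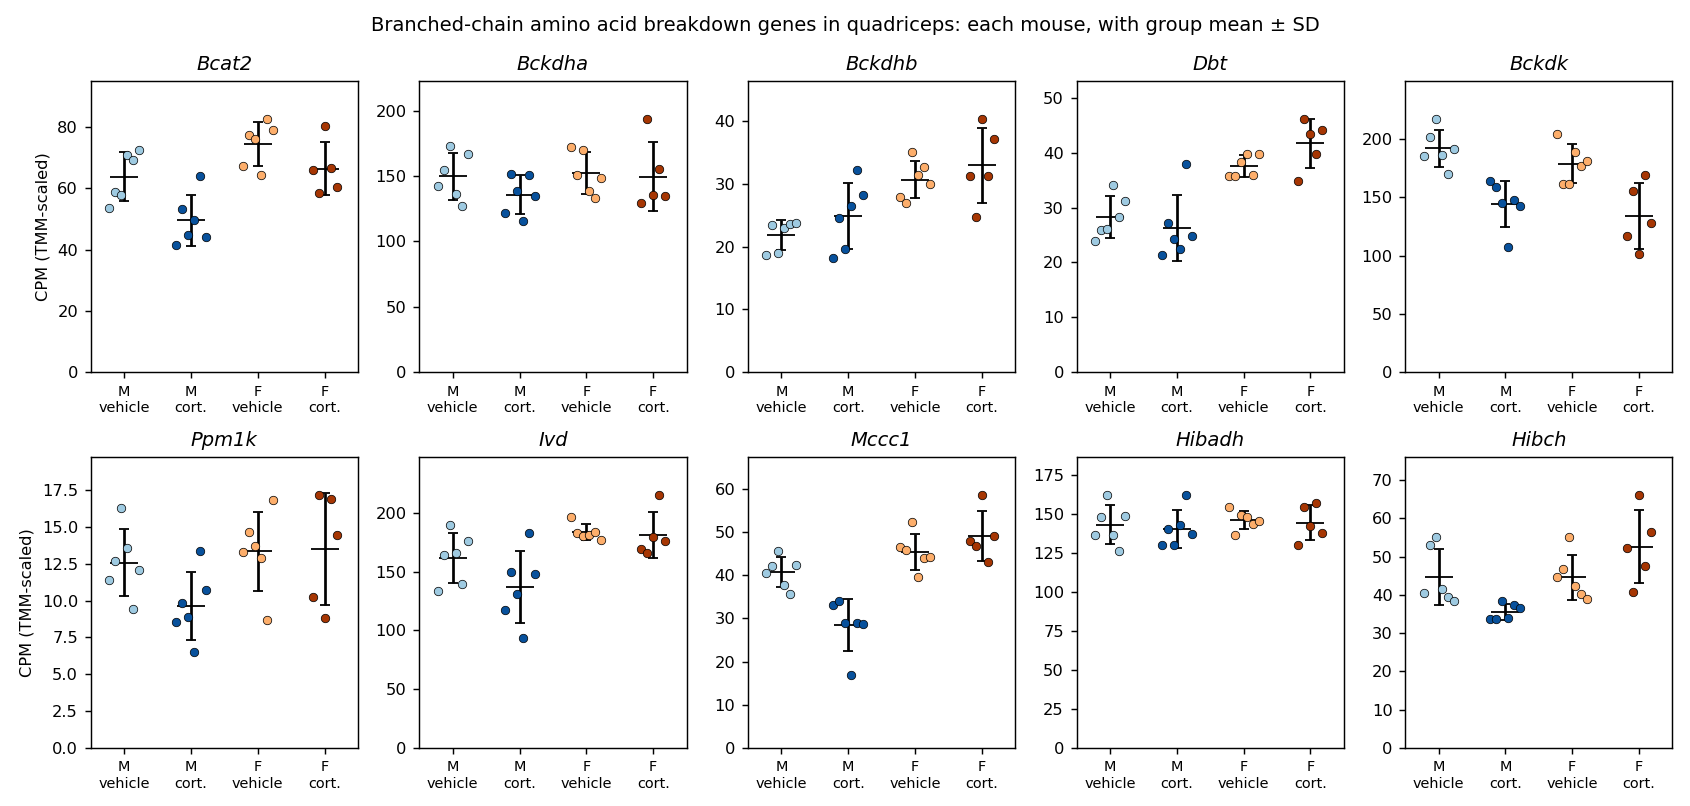
Level of the 10 genes in CPM (counts divided by the TMM-scaled library total) in quadriceps, with 1 point for each mouse and a bar for the mean ± SD of each group; M is male, F is female and cort. is corticosterone. Treated males lie below all vehicle-treated males for Bckdk, Mccc1 and Hibch, while the female groups overlap for every gene.

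**Figure D2:**
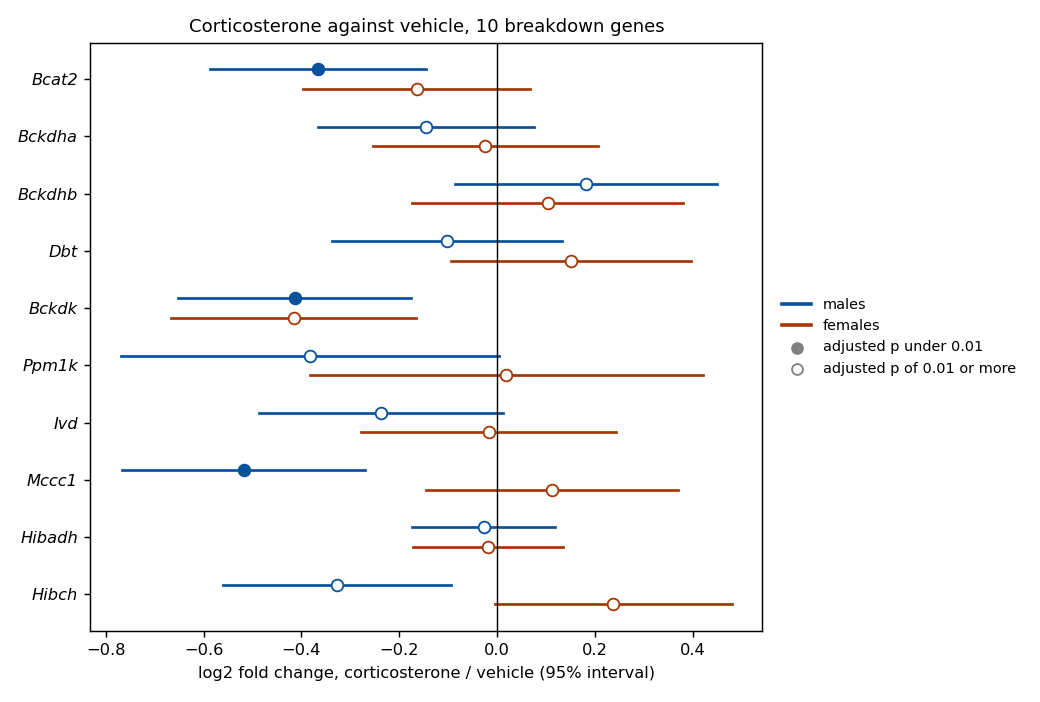
Log2 fold change of corticosterone against vehicle in males (blue) and females (brown), with 95% intervals from the edgeR model; filled points have an adjusted p under 0.01. The filled points are Bcat2, Bckdk and Mccc1, all in males and all below 0.

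Each library held 20904150 to 21984477 counts on genes, and 3 counts were worth 0.119 to 0.166 CPM, and the lowest count of any of the 10 genes in a mouse was 147, for Ppm1k. All 6 skeletal muscle markers were found, and their summed level was 68821 to 184774 CPM in a mouse. Of these 6, 1 fell in each sex. The sum of 7 slow fiber markers varied within every group and ran from 38.0 to 5806 CPM, with 0 of the 7 called in either sex. Sums of markers of other cells varied between mice. The sum of 7 adipocyte markers was 219 to 1002 CPM in males, 282 to 2595 CPM in vehicle-treated females and 270 to 6899 CPM in treated females. Of these 7, 0 were called in males and 1 rose in females. The sum of 7 hepatocyte markers was highest in M8, a treated male, at 2450 CPM and in F10, a treated female, at 2442 CPM. Of these 7, 0 were called in either sex. None of these markers was at 0 in every mouse. Of 5 erythrocyte markers 4 rose in each sex, and of 4 fibroblast markers 2 fell in males and 1 fell in females. Of 4 endothelial markers 1 fell in males and 0 passed in females, and of 5 macrophage markers 0 passed in either sex. The part of these cells in the results was not tested, and in whole muscle fewer cells of a type cannot be told apart from less RNA per cell. Whether males and females were processed together is not given in the sources used here, so a batch cannot be told apart from sex.

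Reading down the route per length of transcript, Bckdha and Hibadh were the most abundant and Ppm1k the least. In vehicle-treated males the mean level was 78.9 CPM per kb for Bckdha and 78.4 CPM per kb for Hibadh, whose mice overlapped. Next came Bckdk at 56.4, Ivd at 44.1, Bcat2 at 36.0 and Hibch at 24.4 CPM per kb. Mccc1 was at 16.6, Bckdhb at 14.9, Dbt at 8.57 and Ppm1k at 2.26 CPM per kb. Among these mice the levels of Bckdk and Ivd, of Ivd and Bcat2, and of Mccc1 and Bckdhb overlapped as well, while the other neighbours in the order were separate. By mean level, Ivd (49.5 CPM per kb) stood above Bckdk (39.4) in treated females, and Bckdk (42.4) above Ivd (37.4) in treated males. The mice overlapped between these genes in both groups. These levels used the length of the reference transcript in GENCODE M21, and the order depended on it. Dividing by the length of all annotated exons moved several genes down in vehicle-treated males. Hibadh was then at 14.1, Bcat2 at 16.4, Hibch at 7.37 and Mccc1 at 3.72 CPM per kb. Hibch and Mccc1 then stood below Bckdhb (12.1) and Dbt (8.45). By that length Bckdk stood above Ivd in treated females as well (36.3 against 33.0), as in treated males (39.0 against 24.9).

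The sequences before the start sites of the 3 genes that fell in males are shown because they lie just before the places where transcription of these genes begins. They were chosen after the calls were known, and the RefSeq table on GRCm38.p6 held 9 of the 10 genes. Each run is the 250 bases before the RefSeq start site in the direction of the gene. Capitals mark matches on either strand of TGTTCT (the core of the motif of the glucocorticoid receptor), of CACCC (the box that Krüppel-like factors bind), of CCAAT and of CACGTG (the E-box). Among 32851 RefSeq promoters of the same length, 16.1% held that core, 52% held CACCC, 33.8% held CCAAT and 6.02% held the E-box. Bckdk lies at chr7:127904082-127910221 (+ strand), Bcat2 at chr7:45570153-45589711 (+ strand) and Mccc1 at chr3:35959312-36000678 (− strand).
Bckdk, chr7:127903823-127904072, + strand: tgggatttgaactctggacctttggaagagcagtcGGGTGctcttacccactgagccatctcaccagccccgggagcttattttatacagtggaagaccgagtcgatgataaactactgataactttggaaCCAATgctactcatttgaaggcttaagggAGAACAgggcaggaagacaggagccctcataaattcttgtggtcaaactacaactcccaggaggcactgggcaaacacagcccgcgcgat
Bcat2, chr7:45569903-45570152, + strand: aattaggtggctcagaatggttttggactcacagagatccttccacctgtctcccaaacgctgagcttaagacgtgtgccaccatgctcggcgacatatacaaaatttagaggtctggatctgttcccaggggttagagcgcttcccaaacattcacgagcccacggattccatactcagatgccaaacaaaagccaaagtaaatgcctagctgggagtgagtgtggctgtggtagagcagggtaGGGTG
Mccc1, chr3:36000679-36000928, − strand: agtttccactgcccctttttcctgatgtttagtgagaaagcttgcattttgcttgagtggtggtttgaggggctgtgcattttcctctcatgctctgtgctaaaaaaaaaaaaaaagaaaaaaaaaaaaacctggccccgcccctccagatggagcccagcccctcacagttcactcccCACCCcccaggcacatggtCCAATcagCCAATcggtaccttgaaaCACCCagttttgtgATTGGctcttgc
The Bckdk run held 1 match of the receptor core, 1 of CACCC and 1 of CCAAT. The Bcat2 run held 1 match of CACCC, on the opposite strand and ending at the base before the start site, and the Mccc1 run held 2 of CACCC and 3 of CCAAT. A match is a description of the letters only.

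Bcat2, which takes the amino group off all branched-chain amino acids, had a lowest, median and highest level of 53.6, 64.0 and 72.7 CPM in vehicle-treated males and of 41.3, 47.1 and 64.1 CPM in treated males. The groups overlapped through M10, the highest treated male, while the other 5 treated males lay below every vehicle-treated one. The mean went from 63.8 ± 8.05 CPM (SD, n = 6) to 49.5 ± 8.31 CPM (SD, n = 6), a log2 fold change of -0.37 ± 0.11 (SE; adjusted p = 0.00918, edgeR). Vehicle-treated females spanned 64.3 to 82.7 CPM with a median of 76.8 CPM, and treated females had 66.2 (F2), 58.6 (F4), 80.5 (F6), 66.7 (F8) and 60.4 CPM (F10). In females 4 of the 5 treated mice lay below the vehicle mean, and the log2 fold change of -0.16 ± 0.11 did not pass (adjusted p = 0.291, edgeR). The call in males was lost in 9 of 12 fits that each left out a mouse (without M3, M7, M9, M11, M2, M4, M6, M8 or M12), with adjusted p values of 0.0104 to 0.0256.

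Bckdha, the alpha subunit of the decarboxylase that starts the committed step, did not pass in either sex. Its level was 127 to 173 CPM in vehicle-treated males (median 148 CPM) and 115 to 152 CPM in treated males (median 137 CPM). The log2 fold change was -0.15 (95% interval -0.37 to 0.07) in males and -0.02 (95% interval -0.25 to 0.21) in females. Vehicle-treated females spanned 133 to 172 CPM, and treated females had 129 (F2), 194 (F4), 135 (F6), 155 (F8) and 135.0 CPM (F10). F4 lay above every other mouse of the 23.

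Bckdhb, the beta subunit of the same decarboxylase, was 18.6 to 23.8 CPM in vehicle-treated males (median 23.2 CPM) and 18.1 to 32.1 CPM in treated males (median 25.5 CPM). It was the only gene of the 10 with a fold change above 0 in males, at 0.18 ± 0.13 on the log2 scale, and it did not pass (adjusted p = 0.274, edgeR). Vehicle-treated females spanned 27.0 to 35.0 CPM (median 30.7 CPM), and treated females had 31.3 (F2), 24.7 (F4), 40.3 (F6), 31.3 (F8) and 37.1 CPM (F10). F4, the mouse with the highest Bckdha, had the lowest Bckdhb of the treated females, and the change in females was 0.10 ± 0.13 on the log2 scale (adjusted p = 0.609, edgeR).

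Dbt, the transacylase core that carries the acyl group to coenzyme A, was 23.9 to 34.1 CPM in vehicle-treated males (median 27.2 CPM) and 21.5 to 37.9 CPM in treated males (median 24.5 CPM). Of the treated males, 5 were below the vehicle mean and M10 was above every vehicle-treated male. Vehicle-treated females were close together at 35.8 to 39.8 CPM (median 37.2 CPM), and treated females had 34.9 (F2), 46.2 (F4), 43.4 (F6), 39.9 (F8) and 44.2 CPM (F10). Treated females thus lay on both sides of the vehicle range, 4 of the 5 above the vehicle mean. The log2 fold change was -0.10 ± 0.11 in males (adjusted p = 0.493, edgeR) and 0.15 ± 0.12 in females (adjusted p = 0.367, edgeR). Per length, the ratio of Dbt to Bckdha had a median of 0.102 in vehicle-treated and 0.104 in treated males, and of 0.146 in vehicle-treated and 0.156 in treated females.

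Bckdk, the kinase that inactivates the dehydrogenase complex, showed nearly the same fold change in both sexes. It was 170 to 217 CPM in vehicle-treated males (median 189 CPM) and 107 to 164 CPM in treated males (median 147 CPM). All 6 treated males lay below all 6 vehicle-treated males, with M8 the lowest. In males this was a log2 fold change of -0.41 ± 0.11 (adjusted p = 0.00672, edgeR), a mean of 0.751 of the vehicle level. Vehicle-treated females spanned 161 to 204 CPM (median 179 CPM), and treated females had 117 (F2), 156 (F4), 101 (F6), 170 (F8) and 128 CPM (F10). F2, F6 and F10 lay well below the vehicle range, F4 just below it and F8 inside it, so that the groups overlapped through F8 alone. All 5 were below the vehicle mean, and the log2 fold change of -0.42 ± 0.12 missed the threshold with an adjusted p of 0.0147 by edgeR and passed it at 0.0048 by DESeq2. The interaction of sex and treatment was 0.00 on the log2 scale (95% interval -0.34 to 0.35).

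The treated females with the lowest Bckdk were also those with the highest adipocyte marker sums. That sum was 3633 CPM in F2, 6899 in F6 and 3272 in F10, and it was 1091 CPM in F4 and 270 CPM in F8. The part of this in the Bckdk values was not tested. Without F8 the females' adjusted p for Bckdk was 0.00272, without F4 it was 0.00786, and without F6 it was 0.0528. In males the call was lost in 9 of 12 fits that left out a mouse (without M1, M3, M5, M7, M11, M6, M8, M10 or M12), with adjusted p values of 0.0101 to 0.0191.

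Ppm1k, the phosphatase that reactivates the complex, was the least abundant of the 10 per length and the most variable between mice. It was 9.40 to 16.3 CPM in vehicle-treated males (median 12.4 CPM) and 6.49 to 13.4 CPM in treated males (median 9.37 CPM). The groups overlapped, with M8 the lowest treated male, and the log2 fold change of -0.38 ± 0.19 did not pass (adjusted p = 0.108, edgeR). Vehicle-treated females spanned 8.70 to 16.9 CPM, and treated females had 10.2 (F2), 17.2 (F4), 8.85 (F6), 16.9 (F8) and 14.5 CPM (F10). F2 and F6 were the lowest treated females for Ppm1k as for Bckdk. In females it was 0.02 with a 95% interval of -0.38 to 0.42. The ratio of Bckdk to Ppm1k, per length, had a median of 25.9 in vehicle-treated and 26.5 in treated males, and of 21.6 in vehicle-treated and 16.4 in treated females, with the female groups overlapping (17.5 to 33.3 against 14.4 to 18.6).

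Ivd, isovaleryl-CoA dehydrogenase of the leucine branch, was 134 to 190 CPM in vehicle-treated males (median 165 CPM) and 93.5 to 183 CPM in treated males (median 140 CPM). M8 was again the lowest and M10 the highest treated male, and the log2 fold change of -0.24 ± 0.12 did not pass (adjusted p = 0.12, edgeR). Vehicle-treated females lay within 177 to 197 CPM, and treated females had 170 (F2), 166 (F4), 180 (F6), 216 (F8) and 176 CPM (F10). Here 4 of the 5 treated females were below the vehicle mean and F8 was above every vehicle-treated female. In females it was -0.02 with a 95% interval of -0.28 to 0.24.

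Mccc1, the biotin-carrying subunit of methylcrotonyl-CoA carboxylase on the leucine branch, had the most negative log2 fold change of the 10 in males. It was 35.7 to 45.6 CPM in vehicle-treated males (median 41.3 CPM) and 16.9 to 34.0 CPM in treated males (median 29.0 CPM). All treated males were below all vehicle-treated males, and M8 stood apart at the low end. The mean went from 40.7 ± 3.51 to 28.4 ± 6.08 CPM (SD, n = 6 each), a log2 fold change of -0.52 ± 0.12 (adjusted p = 0.00167, edgeR). Without M8 the adjusted p was 0.000939, and the call was kept in all 12 fits that left out a mouse. Fitting males alone gave an adjusted p of 0.0103 for Mccc1. Vehicle-treated females spanned 39.6 to 52.5 CPM (median 45.0 CPM), and treated females had 47.9 (F2), 46.9 (F4), 58.7 (F6), 43.0 (F8) and 49.1 CPM (F10). In females 4 of 5 treated mice were above the vehicle mean, and the log2 fold change of 0.11 ± 0.12 did not pass (adjusted p = 0.538, edgeR).

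Hibch, which releases hydroxyisobutyrate from coenzyme A on the valine branch, was 38.34 to 55.1 CPM in vehicle-treated males (median 41.1 CPM) and 33.7 to 38.30 CPM in treated males (median 35.2 CPM). The male groups were separate but nearly touched, and the log2 fold change of -0.33 ± 0.11 missed the threshold (adjusted p = 0.024, edgeR). Vehicle-treated females spanned 38.9 to 55.1 CPM (median 43.5 CPM), and treated females had 52.3 (F2), 40.7 (F4), 66.2 (F6), 47.5 (F8) and 56.4 CPM (F10). Of the treated females 4 of 5 were above the vehicle mean, and F6 and F10 were above every vehicle-treated female. In females the log2 fold change was 0.24 ± 0.12 (adjusted p = 0.138, edgeR).

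Hibadh, the dehydrogenase that follows Hibch, had the narrowest intervals of the 10 in both sexes. It was 126 to 162 CPM in vehicle-treated males (median 142 CPM) and 130 to 162 CPM in treated males (median 139 CPM). Vehicle-treated females spanned 136 to 154 CPM, and treated females had 130 (F2), 154 (F4), 142 (F6), 157 (F8) and 137 CPM (F10). The groups overlapped in both sexes. The log2 fold change was -0.03 (95% interval -0.17 to 0.12) in males and -0.02 (95% interval -0.17 to 0.13) in females. The ratio of Hibadh to Hibch per length had a median of 3.25 in vehicle-treated and 4.01 in treated males, and of 3.48 and 2.49 in females. For this ratio the groups overlapped in males (2.80 to 3.89 against 3.40 to 4.34) and in females (2.71 to 3.75 against 2.16 to 3.80).

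Whether the response differed between the sexes was tested directly as the interaction, the log2 fold change in males less that in females. By edgeR 0 of the 10 passed, beside 0.69% of all genes. At an adjusted p under 0.05 (edgeR) there were 2, Mccc1 and Hibch, beside 12.6% of all genes. The interaction was -0.63 ± 0.17 for Mccc1 (adjusted p = 0.0257, edgeR) and -0.56 ± 0.16 for Hibch (adjusted p = 0.0308, edgeR). DESeq2 called 1, Mccc1, with an adjusted p of 0.00919, beside 6.87% of all genes called by DESeq2. With limma-voom the count was 0, beside 5.31%. Without F6 the adjusted p (edgeR) was 0.0619 for Mccc1 and 0.0757 for Hibch. For Ppm1k the interaction was -0.40 with a 95% interval of -0.96 to 0.16, and for Dbt it was -0.25 with a 95% interval of -0.59 to 0.09, both intervals including 0. The difference between sexes in the Bcat2 response was -0.20 ± 0.15 (adjusted p = 0.374, edgeR), so Bcat2 was not shown to respond differently in the 2 sexes.

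Between the sexes under vehicle, Bckdhb and Dbt were the genes whose groups did not overlap. Every vehicle-treated male lay below every vehicle-treated female for these 2, beside 0.935% of all genes. Bckdhb reached 23.8 CPM at most in males and 27.0 CPM at least in females, and Dbt reached 34.1 CPM at most in males and 35.8 CPM at least in females. The log2 difference, male less female, was -0.49 ± 0.13 for Bckdhb (adjusted p = 0.046, edgeR) and -0.41 ± 0.11 for Dbt (adjusted p = 0.0585, edgeR), neither past the threshold. In all, 0 of the 10 were called, beside 0.958% of all genes and 0.268% called lower in males. At an unadjusted p under 0.05 there were 3, Bckdhb, Dbt and Bcat2, and DESeq2 called 0. Hibch had a log2 difference of 0.00 with a 95% interval of -0.23 to 0.23.

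Under corticosterone, Mccc1, Dbt, Hibch and Bcat2 were lower in males than in females. These 4 calls stood beside 23.3% of all genes called and 14% called lower in males, and 9 of the 10 differences were below 0 with a median of -0.42 against -0.03 over all genes. The log2 difference was -0.79 ± 0.12 for Mccc1 (adjusted p = 0.000143, edgeR), a level of 0.579 of that in females. Every treated male lay below every treated female for Mccc1 and Hibch, beside 5.55% of all genes. The highest male was at 34.0 CPM and the lowest female at 43.0 CPM for Mccc1, and at 38.3 and 40.7 CPM for Hibch. The log2 difference was -0.66 ± 0.12 for Dbt (adjusted p = 0.000364, edgeR), with an overlap through M10 alone, and -0.56 ± 0.12 for Hibch (adjusted p = 0.00102, edgeR). For Bcat2 it was -0.42 ± 0.11 (adjusted p = 0.00509, edgeR), a call that was lost without M2, M6, M12, F6 or F10 (adjusted p of 0.0105 to 0.0319) and without M8 and F10 together (0.0164). The Bcat2 call was also lost with no count filter (0.0305), with the treated groups fitted alone (0.0228), and with same-numbered males and females fitted as blocks. Hibch without M8 and F10 together had an adjusted p of 0.0104.

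The remaining 6 genes did not pass between treated males and females. The log2 difference was -0.40 ± 0.13 for Ivd (adjusted p = 0.0147, edgeR) and -0.41 ± 0.13 for Bckdhb (adjusted p = 0.0202, edgeR). Ppm1k stood at -0.49 ± 0.19 (adjusted p = 0.0513, edgeR). Without M10, the treated male with the highest Ivd and Bckdhb, both passed, at 0.0027 for Ivd and 0.00643 for Bckdhb. Going the other way, the adjusted p was 0.0421 for Ivd without F8 and 0.095 for Bckdhb without F6. Bckdk was the exception in direction, at 0.11 ± 0.12 (adjusted p = 0.514, edgeR). The comparison of treated males with treated females uses the same treated mice as the comparisons with vehicle, so the calls for Mccc1 and Bcat2 in both are not independent of each other.

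**Figure D3:**
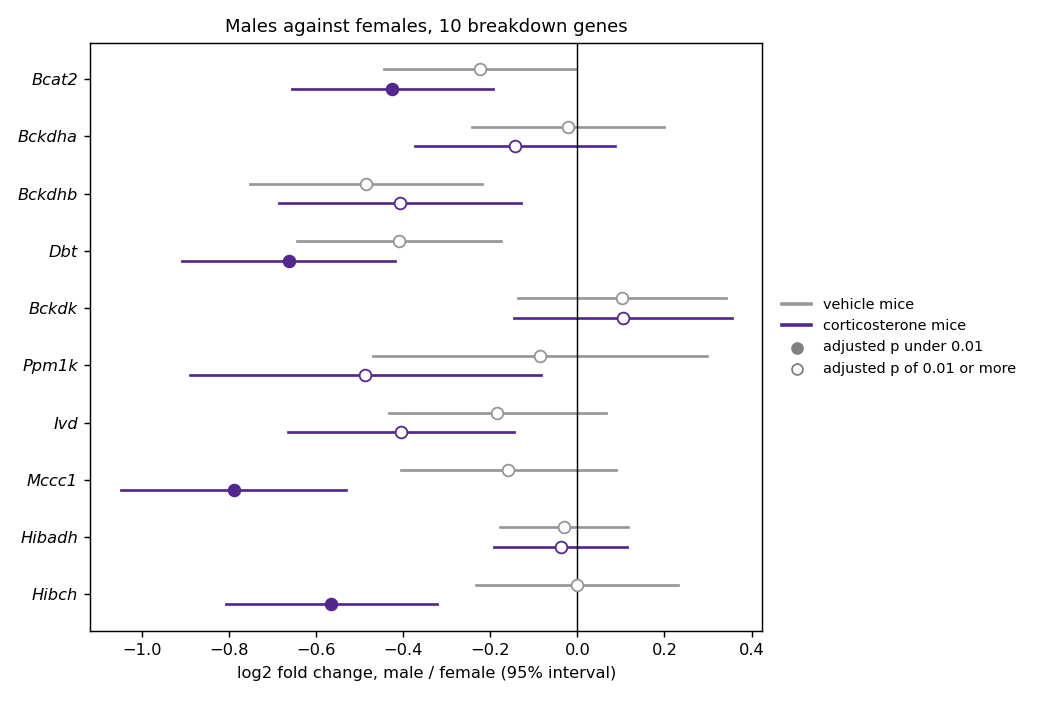
Log2 difference of males less females for the 10 genes among vehicle-treated mice (grey) and corticosterone-treated mice (purple), with 95% intervals from the edgeR model; filled points have an adjusted p under 0.01. The filled points are Bcat2, Dbt, Mccc1 and Hibch among treated mice, at -0.42 to -0.79.

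The rest of the route was described through 16 further genes, of which 15 were tested. Bcat1, the cytosolic aminotransferase, did not pass the count filter and had 0 to 42 counts in a mouse. In males 1 of the 15 rose and 3 fell, beside 26.3% of all genes called, with a median log2 fold change of -0.09 against -0.02 over all genes. In females 0 passed, beside 13.4% of all genes, with a median of 0.00 against 0.04. Acadsb, which acts on the isoleucine branch and oxidises short branched acyl groups, rose in males by 0.84 ± 0.12 on the log2 scale (adjusted p = 1.01e-05, edgeR). It was 94.9 to 124 CPM in vehicle-treated and 143 to 241 CPM in treated males, with no overlap. In females Acadsb stood at 0.36 ± 0.12 (adjusted p = 0.0307, edgeR), also with no overlap, and the interaction of 0.47 ± 0.17 did not pass (adjusted p = 0.0621, edgeR).

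Mccc2, which encodes the partner subunit of Mccc1 in the same carboxylase, fell in males too. It was 32.7 to 38.2 CPM in vehicle-treated and 19.9 to 31.9 CPM in treated males, a log2 fold change of -0.37 ± 0.09 (adjusted p = 0.00363, edgeR), and the 2 groups did not overlap. M8 was the lowest treated male for Mccc2 as for Mccc1. Pccb, a subunit of propionyl-CoA carboxylase, which receives carbon from valine and isoleucine, fell by 0.53 ± 0.11 in males (adjusted p = 0.000993, edgeR), and Acad8, the acyl-CoA dehydrogenase of the valine branch, fell by 0.36 ± 0.08 (adjusted p = 0.000959, edgeR). In females Mccc2 stood at -0.09, Pccb at -0.04 and Acad8 at -0.29 on the log2 scale, the last with an adjusted p of 0.0114 by edgeR and 0.00405 by DESeq2. Among treated mice Mccc2 was lower in males than in females by a log2 difference of -0.41 ± 0.10 (adjusted p = 0.00271, edgeR) and Pccb by -0.52 ± 0.12 (adjusted p = 0.00203, edgeR). The only other call of the 15 in that comparison, named here after its values were seen, was Hsd17b10, a dehydrogenase of the isoleucine branch, at -0.30 ± 0.08 (adjusted p = 0.005, edgeR), and the 3 calls stood beside 14% of all genes called lower in males.

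Other steps of the route did not pass in either sex. Dld, the dihydrolipoamide dehydrogenase that the branched-chain complex shares with the pyruvate and oxoglutarate complexes, stood at -0.17 ± 0.11 in males and 0.00 ± 0.12 in females on the log2 scale. Aldh6a1, which ends the valine branch, stood at 0.25 ± 0.11 and 0.23 ± 0.11. Slc25a44, the mitochondrial carrier of branched-chain amino acids, stood at 0.15 ± 0.13 in males and 0.39 ± 0.14 in females (adjusted p = 0.0405 in females, edgeR).

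**Figure D4:**
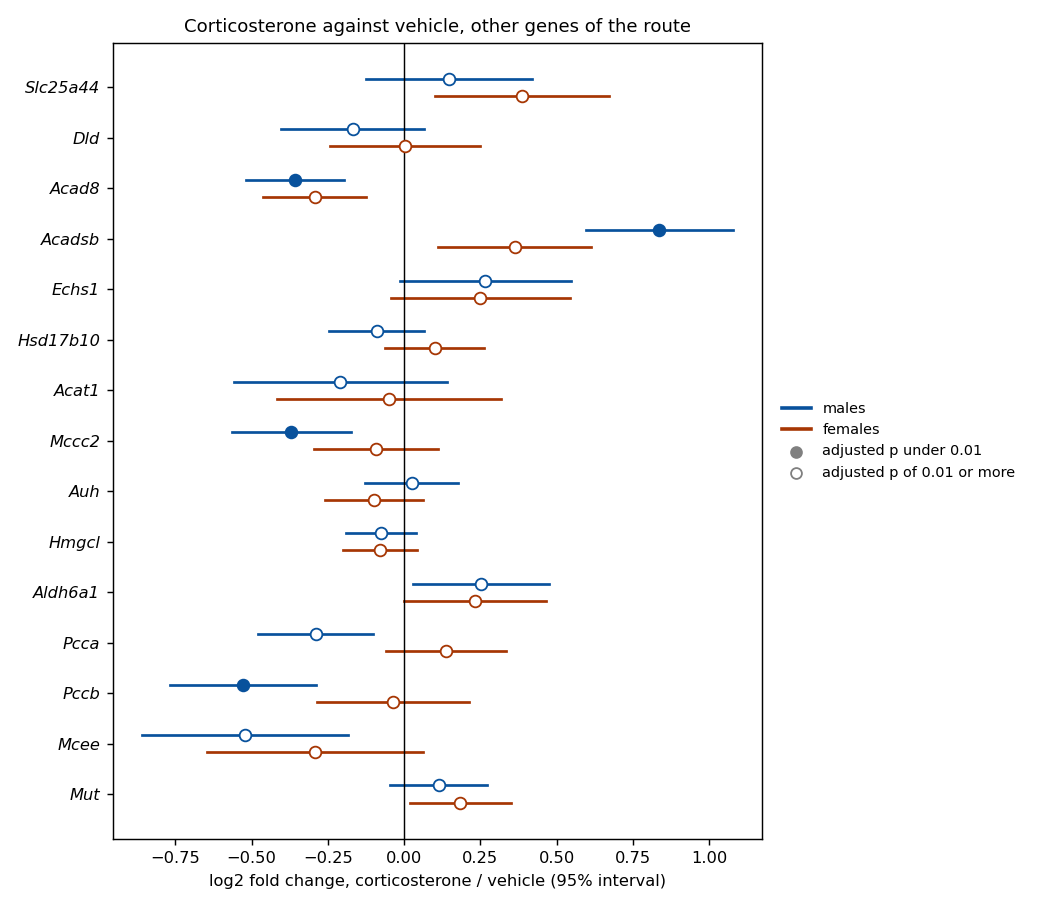
Log2 fold change of corticosterone against vehicle for 15 further genes of the route in males (blue) and females (brown), with 95% intervals from the edgeR model; filled points have an adjusted p under 0.01. Acadsb is the filled point above 0 in males, and Acad8, Mccc2 and Pccb are those below 0.

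The pyruvate dehydrogenase complex is built like the branched-chain complex and has its own kinases and phosphatases. Of its 6 genes 2 fell in males, beside 13.1% of all genes called lower, and 0 passed in females, beside 13.4% called. Their median log2 fold change was -0.40 in males against -0.02 over all genes, and -0.20 in females against 0.04. In males Dlat, its transacylase core and the counterpart of Dbt, fell by 0.61 ± 0.14 on the log2 scale (adjusted p = 0.00152, edgeR) and Pdhx, which binds Dld to the core, fell by 0.46 ± 0.10 (adjusted p = 0.00111, edgeR), while Dbt stood at -0.10. Of 14 citric acid cycle genes 0 passed in either sex, beside 26.3% of all genes in males and 13.4% in females, with medians of -0.30 in males and -0.19 in females against -0.02 and 0.04 over all genes.

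Glul, glutamine synthetase, which fixes nitrogen that leaves muscle, rose in both sexes, opposite in direction to Bcat2 in males. Its response was 2.01 ± 0.24 in males (adjusted p = 2.02e-06, edgeR) and 1.27 ± 0.25 in females (adjusted p = 0.000874, edgeR). Of the 5 genes for nitrogen acceptors Glul was the 1 call in males, beside 26.3% of all genes called. In females there were 2 calls, beside 13.4%. Gpt, an alanine aminotransferase, was the other, and rose by 1.13 ± 0.23 on the log2 scale (adjusted p = 0.00112, edgeR). In males Gpt stood at -0.09. The Gpt interaction of -1.22 ± 0.31 missed the threshold with an adjusted p of 0.0204 by edgeR and passed it at 0.0041 by DESeq2. Gpt was highest in F6, at 82.1 CPM, the treated female with the highest adipocyte marker sum, and lowest among treated females in F8, at 32.1 CPM. The part of those cells was not tested.

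Fkbp5, a transcript that glucocorticoids raise, served as a sign of exposure and rose by 3.36 ± 0.30 on the log2 scale in males and 3.05 ± 0.30 in females (adjusted p of 6.74e-08 and 1.77e-06, edgeR), with no overlap in either sex. Klf15, a transcription factor known to act on branched-chain amino acid breakdown and on Bcat2, rose in males by 1.18 ± 0.14 (adjusted p = 1.17e-06, edgeR). It was 27.7 to 43.9 CPM in vehicle-treated and 62.7 to 99.2 CPM in treated males. In females Klf15 stood at 0.34 ± 0.14 (adjusted p = 0.0774, edgeR), and the interaction of 0.84 ± 0.20 missed the threshold at 0.016 by edgeR and passed at 0.00116 by DESeq2. In the same treated males Bcat2 was lower than under vehicle, and a link between Klf15 and Bcat2 was not tested.

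The 10 genes varied together only loosely over the 23 mice. Across their 45 pairs the correlation of log2 CPM had a median of 0.49, from -0.47 for Bckdhb with Bckdk to 0.76 for Ivd with Mccc1, and 41 pairs were above 0. With group means taken out, the median was 0.29, 35 pairs were above 0, and Bckdhb with Bckdk was again the lowest at -0.47. Bckdha with Bckdhb, which form 1 enzyme, had -0.03 over all mice and -0.21 with group means taken out. Bckdhb with Dbt had 0.76 over all mice and 0.51 with group means taken out. These points share libraries and scaling factors and are a description.

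The tested genes most like Bcat2 over the 23 mice were Blmh (Pearson r = 0.86), Ift20 (0.82) and Rian (0.82). Those most like Bckdk were Sucla2 (0.96), Grsf1 (0.95) and Bves (0.95). None of the other 9 members was among the 10 genes most like either, and of all 10 members Hibadh alone had another member, Bckdha (0.70), among its 10. Chosen after its values were seen, Mccc1 had Pccb first (0.93) and Mccc2 at rank 5 (0.87).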

How the data were processed

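Quadriceps messenger RNA of 23 mice was sequenced as stranded 100 bp read pairs. The authors aligned reads to mm10 with STAR 2.7.3a, after FastQC and MultiQC, and counted them by strand with HTSeq 0.12.4, and they deposited raw counts per gene and mouse, with no normalization. The table's 5 summary entries (10.7% to 15.3% of read pairs) were left out. GENCODE M21 matched 55480 of 55573 gene IDs, and 10 of 10 members.

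Groups were taken from the sex and treatment in the labels, and mice are called M or F with their number. The 13049 genes that exceeded 20 normalized counts in 4 or more mice of a group were tested, by edgeR 4.0.16 (R 4.3.3) with its quasi-likelihood test, TMM factors (0.832 to 1.21), 4 group means in 1 model of all mice, and Benjamini-Hochberg adjustment with a threshold of 0.01. All 10 members exceeded the filter's minimum in all 23 mice. CPM are counts divided by the TMM-scaled library total, and correlations used log2 CPM with a prior count of 1. Alternatives were DESeq2 1.42.0, limma 3.58.1 (voom with quality weights), the median of ratios, other filters and thresholds, only the groups compared, a replicate block, and leaving out mice. The scripts were tested on simulated data.

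The members, the gene lists and the tests were chosen with earlier results of these data known. Named genes were all 10 members in every comparison, 7 further genes and, for each list, up to 4 genes past the threshold in a sex. No 2 replicates had counts that agreed within sampling noise (lowest chi-square per degree of freedom 15.2 over 55 pairs). Nothing in the labels says that the mice were littermates or cagemates.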

Additional observations from a re-analysis of the deposited data

Results flagged for a closer look

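In 4 of the 40 sets of values (10 genes in 4 groups), the highest or lowest mouse stood apart from the other mice of its group by Dixon's criterion, which chance alone gives in about 1 of 20 sets. Dbt was 37.91 CPM in M10, a treated male, with the next at 27.14 CPM. Mccc1 was 16.94 CPM in M8, a treated male that also had the highest hepatocyte marker sum (2450 CPM), with the next at 28.62 CPM. Ivd was 196.8 CPM in F1, a vehicle-treated female, with the next at 183.7 CPM, and 215.7 CPM in F8, the treated female with the lowest adipocyte marker sum (270 CPM), with the next at 179.7 CPM. Without M10 the log2 fold change of Dbt in males was -0.24 (adjusted p = 0.043, edgeR), and without M8 that of Mccc1 kept its call (adjusted p = 0.000939, edgeR). Whether marker content bears on these values was not tested.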

How the results depend on the processing

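The count of the 10 genes called in males was 3 by edgeR (beside 26.3% of all genes called), DESeq2 (30.6%), limma-voom (31.6%) and with the median of ratios (26.3%). It was 2 with filterByExpr (22.9%) and 1 with no filter (31922 genes tested, 8.89%). It was also 1 with males fitted alone (Bckdk, 27.8%) and without M8 and F10 together (Mccc1, 22.3%), the libraries richest in liver transcripts. It was 1 without M3, M7, M11, M6, M8 or M12, and 1 to 2 over the 12 fits that left out a mouse, beside 22.1% to 24.7% of all genes. In females, where edgeR called 0 (13.4% of all genes), the count was 1 (Bckdk) by DESeq2 (18.8%) and by limma-voom (18.8%). It was also 1 at a threshold of 0.05 (26.7%), and without F4 (17.3%) or F8 (18.1%). Leaving out each mouse gave 0 to 1, beside 7.69% to 18.1% of all genes. For the interaction it was 1 (Mccc1) by DESeq2, beside 6.87% of all genes, and 0 by limma-voom, beside 5.31%. At 0.05 it was 2 (Mccc1 and Hibch), beside 12.6%. Between vehicle groups it was 1 (Bckdhb) with those groups alone, beside 1.1% of all genes, and at 0.05, beside 2.37%. Between treated groups, where edgeR called 4 (23.3% of all genes), it was 4 by DESeq2 (29.5%), with the median of ratios (23.6%) and with filterByExpr (20.3%). It was 5 by limma-voom (26.3%), 3 with no filter (7.4%), 3 with those groups alone (10.2%), 6 at 0.05 (39%) and 2 without M8 and F10 (10.6%). Over single mice left out it was 3 to 6, beside 14.4% to 28.7%, and it was 6 without M10 (21.2%). Requiring a log2 fold change beyond 1 left 0 in males (7.53% of all genes) and 0 between treated groups (7.77%), since no member was that large. The run with no filter adjusted p over 31922 genes, and the causes of these changes in count were not tested.

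Same-numbered males and females correlated in their deviations at -0.38 to 0.48 over 11 pairs, 7 of them over 0.1 and 4 best with their own number. Vehicle-treated pairs were all above 0, at 0.08 to 0.48, and treated pairs ran from -0.38 to 0.24. Nothing in the labels ties same-numbered mice, and what they share was not tested. With a replicate block the interaction gave 0 calls (0.743% of all genes), the vehicle groups 0 (1.05%) and the treated groups 3 (17.3%). Among the treated groups Bcat2 was lost (adjusted p = 0.0269, edgeR). No block could be fitted for corticosterone against vehicle, since those groups share no numbers.

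Sign changes occurred in 13 of the 50 values of the 10 genes in 5 comparisons, all of them uncalled, and no called value changed sign under any alternative run. The Hibadh interaction was 0.0108 by DESeq2, 0.0103 with the median of ratios, 0.00529 with filterByExpr, 0.0379 with no filter, 0.0430 by limma-voom and 7.39e-06 with the replicate block, and Hibadh between treated groups was 0.0142 with no filter. Ppm1k in females was -0.0150 with no filter, -0.204 by limma-voom and -0.0216 without M8 and F10. By limma-voom the interaction was 0.00971 for Bckdha and -0.00697 for Bckdhb. Hibch between vehicle groups was -0.0150 by limma-voom, -0.00423 without M8 and F10 and -0.00502 with the replicate block. Leaving out 1 mouse moved Hibadh from -0.0733 to 0.0109 in males, from -0.0511 to 0.0157 in females, from -0.0541 to 0.0301 for the interaction and from -0.0687 to 0.00321 between vehicle groups. It moved Bckdha from -0.134 to 0.0245 in females and from -0.0663 to 0.0218 between vehicle groups, the interaction from -0.00884 to 0.179 for Bckdhb and from -0.0683 to 0.101 for Bckdk, Ppm1k in females from -0.0831 to 0.126, Ivd in females from -0.0869 to 0.0128, and Hibch between vehicle groups from -0.0689 to 0.0694.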
